A study of Homo sapiens with 12 samples.

Results

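The genes described here are 54 genes of the G2 phase and mitosis, taken by gene name from a table of 63241 genes counted in 12 RNA sequencing libraries. They were taken by name and not by a cut on their values, but the list was set with earlier results of these data known. All 54 names matched a gene, 51 had enough counts to be tested, and the other 3 (CDC25C, CENPA and NUSAP1) held 66, 74 and 2 counts over all libraries. T98G and U251, the cell lines sequenced, are established human glioblastoma lines, each derived from a brain tumour. Cells that over-expressed PEPD, labelled PEPD-OE, were set against cells of the same line labelled NC, a short form the labels do not spell out. PEPD encodes peptidase D (prolidase), an enzyme that cleaves dipeptides ending in proline. The 4 groups were T98G PEPD-OE, T98G NC, U251 PEPD-OE and U251 NC, with 3 libraries each. The vector, the promoter, the time after its introduction and whether the cells were clones or pools are not stated in the sources used here. Nothing says that the replicates were separate cultures, so a p-value weighs a difference against the spread of these libraries alone, which may be of technical origin.

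Cells enter mitosis when cyclin-dependent kinase 1, bound to cyclin B, is freed from inhibitory phosphate by CDC25 phosphatases, with Aurora A and Polo-like kinase 1 feeding this switch. Condensins and topoisomerase II then compact the chromosomes, kinetochores attach them to a spindle of microtubules and motors, and the spindle checkpoint holds the cell until every chromosome is attached. The anaphase-promoting complex next tags securin and cyclin B for destruction, and the central spindle and an actin ring divide the cell. Transcripts of most of these genes are known to peak in G2 and mitosis, and their summed level is often read as a sign of how many cells in a culture divide, glioblastoma cultures included. In a bulk sample, fewer cells in mitosis and less RNA per cell cannot be told apart.

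Levels are given as CPM, counts scaled to a library of 1e+06 with TMM, a factor that corrects each library's total for genes that take up an unusual share of it. Library totals ranged from 464056 to 924204 counts, and a count of 3 equalled 3.20 to 6.33 CPM. The tested mitotic genes held a median of 27.6 counts per library, from 8.75 to 241, and 19 of the 51 held fewer than 20. PEPD held 118, 100 and 114 counts with PEPD-OE against 9, 2 and 9 with NC in T98G, and 113, 140 and 175 against 11, 5 and 7 in U251, log2 fold changes of 4.04 (SE 0.25) and 4.16 (SE 0.23). None of the 8 macrophage or 6 endothelial markers had enough counts for a test (at most 63.7 and 31.6 CPM in sum, with 2 and 1 at 0 in every library). Mitochondrially encoded genes took 7.50 to 9.32% of the counts in T98G PEPD-OE and 4.94 to 6.01% in T98G NC, and the TMM factors were 0.908 to 0.931 and 1.05 to 1.08. The part of this shift in the T98G results is given below as the values without these factors.

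The libraries kept the strand of each RNA, but the strand setting of the counting is not given in the sources used here, and the table as a whole may hold counts of the strand opposite each gene. MT-ND6, the one protein gene of the mitochondrial genome annotated on the minus strand, whose transcript is usually scarce beside the others, held 233897 counts per kb over all libraries, the highest of the 13 mitochondrial protein genes; the other 12 held 8596 to 85224. If the counting took the opposite strand, every value below, those of genes without any overlap such as AURKA, TOP2A and MKI67 included, would be a count of reads opposite the gene and not a level of its own RNA. Of the 54 mitotic genes, 18 share exon bases with a gene on the other strand in GENCODE release 29 (GRCh38), and for 6 of these 18 the gene across the strand held more counts. PRC1-AS1, a transcript antisense to the cytokinesis gene PRC1, held 17067 counts in all against 110 under PRC1 itself, or 9487 against 19.9 per kb of exon, above the 4054 of the actin gene ACTB and the 6532 of GAPDH. TRIM59, a ubiquitin ligase gene that shares 1561 bases with the condensin gene SMC4, held 36631 counts against 1824, and LCORL, a transcription factor gene that shares 1631 bases with the condensin gene NCAPG, held 6024 against 1881. Genes with any such overlap took 62.2 to 70.1% of all counts in a library. A count table holds no reads, so their strand was not tested, and each value below is what the table holds under that name; "level", "rose" and "fell" refer to those counts.

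Promoter sequences were read for the genes that moved in T98G. Many promoters of G2 and mitosis genes carry a cell cycle genes homology region (CHR), bound by the MuvB complexes that repress these genes outside the cycle and induce them in G2, and CCAAT boxes, bound by NF-Y. RefSeq promoters (GRCh38.p14, 250 bases before to 50 after the gene's start) were matched by symbol for 46 of the 54 genes, all but AURKA, HMGB2, CDCA2, TTK, BIRC5, TPX2, RACGAP1 and UBE2C. The letters TTTGAA or TTCGAA, on either strand, stood in 33 of the 46 (71.7%) and in 16.6% of all 27305 promoters, and CCAAT in 32 (69.6%) and in 35.7%. The windows below, 30 bases each and read along the gene, are those of genes that rose in T98G PEPD-OE cells (TOP2A, NCAPD2, NCAPG, CKAP5) and of genes that fell (PLK1, SMC4, BUB1B, NDC80, CKAP2L). Capitals mark the match, written TTCAAA where it lies on the other strand, and the position is that of its first base, counted so that -1 is the base before the start.
TOP2A, chr17:40418073-40418102, position -194: cgagtggtgcctTTTGAAgcctctctagtc
NCAPD2, chr12:6493945-6493974, position -145: cagccgttgagaTTTGAActcggtatttgt
NCAPG, chr4:17810932-17810961, position -35: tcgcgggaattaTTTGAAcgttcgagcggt
CKAP5, chr11:46846336-46846365, position -73: gcccacaggcctTTCAAAtggaccaataaa
PLK1, chr16:23678848-23678877, position -29: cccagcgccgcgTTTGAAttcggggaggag
SMC4, chr3:160399563-160399592, position -75: gccgcactttttTTCAAAttagtggatccc
BUB1B, chr15:40161034-40161063, position -23: gggaccgttaaaTTTGAAacttggcggcta
NDC80, chr18:2571548-2571577, position 4: gagaatttcaaaTTCGAAcggctttggcgg
CKAP2L, chr2:112764609-112764638, position -17: acaggcgcggcgTTTGAAgaaaaactgtca
TOP2A, NDC80, CKAP2L and CKAP5 hold a further match, and in NDC80 the TTCAAA just before the capitals is that match. Such a match is a description of letters and not a binding site. The CHR letters were in all 4 matched genes that rose, in all 5 that fell and in 22 of 34 (64.7%) that were not called, so they did not part the genes by direction.

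MKI67, the gene of the Ki-67 protein that coats mitotic chromosomes, and UBE2S, a ubiquitin-chain gene that rose in U251, are shown as a pair with and without the element. Each stretch has 150 bases that no exon covers, and capitals mark CHR letters and CCAAT boxes, here on the other strand and so written ATTGG. The second CHR match in MKI67 overlaps such a box.
MKI67, chr10:128126424-128126573, minus strand: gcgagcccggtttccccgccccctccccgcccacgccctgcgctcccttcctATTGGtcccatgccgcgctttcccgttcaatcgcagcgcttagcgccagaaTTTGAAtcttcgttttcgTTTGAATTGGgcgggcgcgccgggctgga
UBE2S, chr19:55407789-55407938, minus strand: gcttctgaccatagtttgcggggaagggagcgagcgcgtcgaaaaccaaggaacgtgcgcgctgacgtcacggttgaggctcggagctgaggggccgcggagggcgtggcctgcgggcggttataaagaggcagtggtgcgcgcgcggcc
The whole UBE2S window held no CHR letters and 1 CCAAT, at position -191, before the stretch shown.

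In T98G, PEPD-OE cells had more counts under 5 mitotic genes and fewer under 6, and 4 of the 5 that rose are genes of chromosome structure. These 4 are among the better counted, at 151 to 192 counts per library against a median of 27.6 for the tested mitotic genes. TOP2A, NCAPD2, NCAPG, HMGB2 and CKAP5 rose, and AURKA, PLK1, SMC4, BUB1B, NDC80 and CKAP2L fell (edgeR quasi-likelihood test, Benjamini-Hochberg adjusted p under 0.05 over the 8773 genes tested). These 11 are 21.6% of the 51 genes tested, against 32.3% of all genes (17.7% higher, 14.7% lower), so the count itself is not a result about the mitotic genes. The median log2 fold change of the 51 was -0.0035, with 25 above 0 and 26 below. CPM of the 3 PEPD-OE and the 3 NC libraries did not overlap for 15 of the 51 (29.4%), 7 above and 8 below, against 43.5% of all genes. In U251, LMNB1 and UBE2S rose and none fell, 3.92% of the 51 against 8.55% of all genes (4.13% higher, 4.42% lower). With edgeR at an unadjusted p under 0.05, 7 of the 51 were higher in U251 and 0 lower, beside 1794 of all 8773 genes in either direction. Taken in either direction, the share of mitotic genes was below that of all genes here too. The 1794 were not split by direction, so the 7 higher have no matching share of all genes beside them. DESeq2 called 0 in U251, where it gave 25 of the 51 an adjusted p. The U251 median was 0.13, with 36 of 51 above 0, against 0.0017 and 4409 of 8773 for all genes. The libraries did not overlap for 2 genes (3.92% against 22.4% of all genes).

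Sums of the glioblastoma and fibroblast markers did not overlap between PEPD-OE and NC in either line, while those of the epithelial markers overlapped in both. Of 10 glioblastoma markers, 9 were tested, and their summed level was 1245 to 1421 CPM in T98G PEPD-OE against 1745 to 1850 in NC, and 3663 to 4209 against 5028 to 5176 in U251. In T98G 4 of the 9 fell, and in U251 1 rose and 3 fell. That is 44.4% called in each line, against 32.3% of all genes in T98G and 8.55% in U251. Of 6 fibroblast markers 3 were tested, with sums of 546.9 to 674 CPM against 244 to 311 in T98G, where 2 rose, and of 322 to 417 against 535 to 563 in U251, where 1 fell. Of 7 epithelial markers 3 were tested, with sums of 148 to 225 against 146 to 190 CPM in T98G, where 1 rose and 1 fell, and of 87.2 to 187 against 130 to 183 in U251. The fibroblast share called was 66.7% in T98G and 33.3% in U251, and the epithelial share 66.7% and 0%, each of 3 genes. The part of these shifts in the values of the mitotic genes was not tested.

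**Figure D1:**
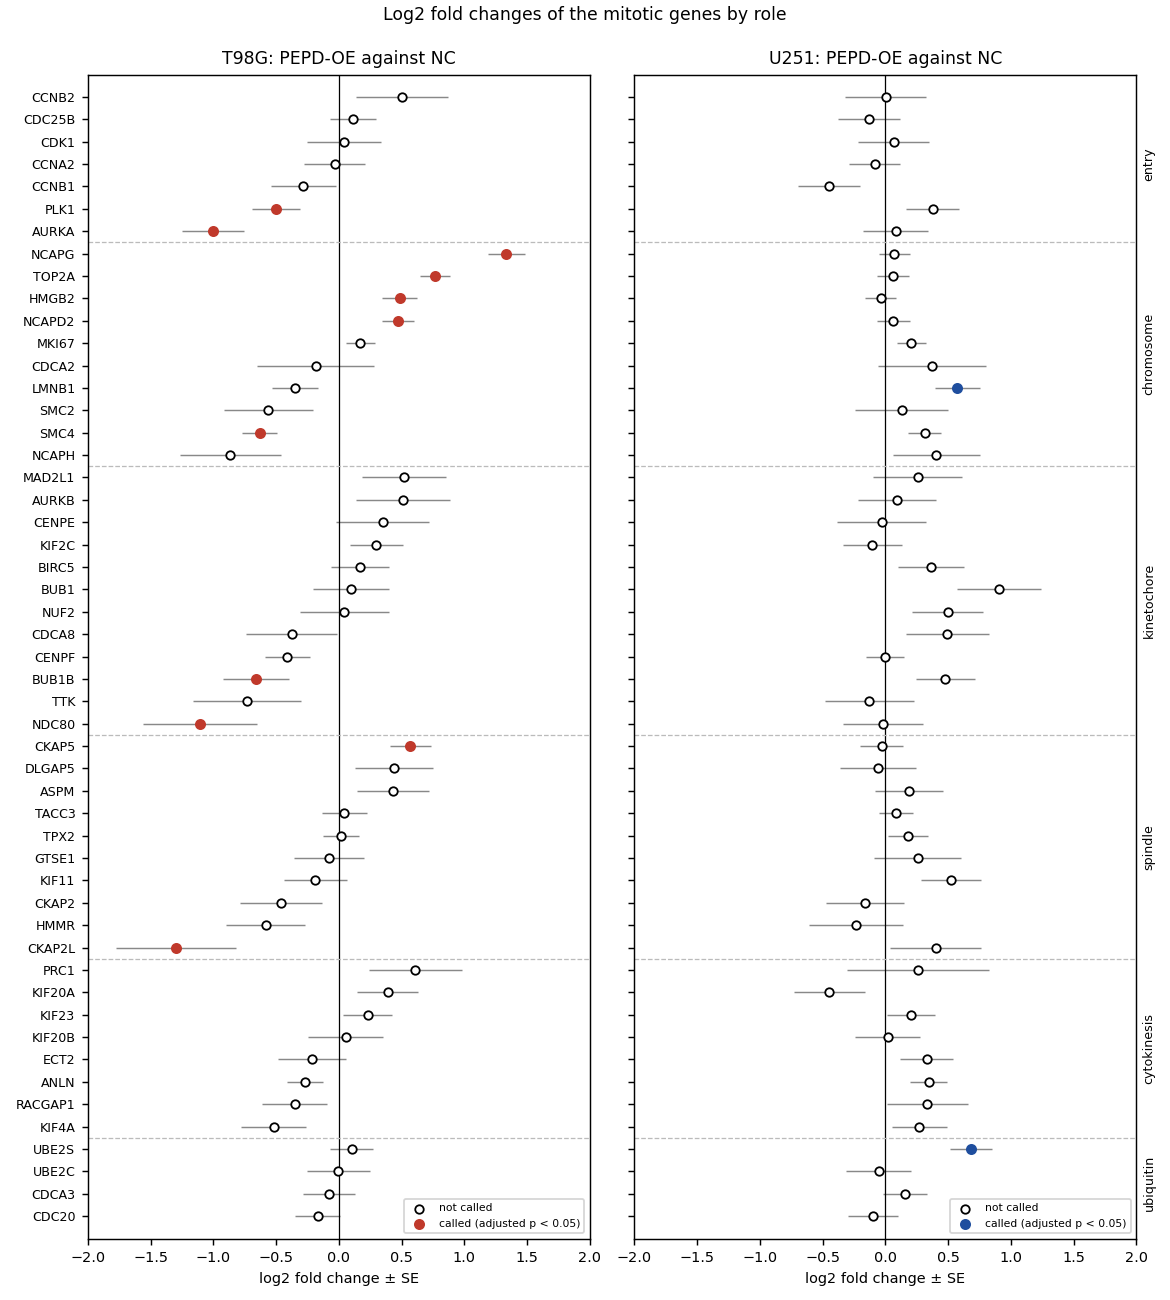
Log2 fold change (PEPD-OE against NC, ± SE) of the 51 tested mitotic genes on the x axis, in rows ordered by role, for T98G (left) and U251 (right); filled points passed the test. In T98G the called genes run from -1.30 for CKAP2L to 1.34 for NCAPG, and in U251 only LMNB1 and UBE2S are filled.

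Of the 7 entry genes tested, the kinase genes AURKA and PLK1 fell in T98G (28.6%, against 32.3% of all genes called and 14.7% called lower). AURKA (chr20:56369389-56392337, minus strand), the Aurora A kinase that matures centrosomes, was at 26.6, 42.1 and 19.9 CPM with PEPD-OE and at 57.0, 62.4 and 56.4 with NC in T98G. Every PEPD-OE library was below every NC library. AURKA fell by 1.00 in log2 units (SE 0.25), with an adjusted p of 0.000561. Its U251 levels were 30.1, 31.0 and 34.2 against 28.9, 38.6 and 23.1 CPM and overlapped, a log2 fold change of 0.08 (SE 0.26). PLK1 (chr16:23677656-23690367, plus strand), the Polo-like kinase that also acts on centrosomes, kinetochores and cytokinesis, was at 62.1, 63.9 and 75.5 against 124, 80.6 and 89.1 CPM in T98G. Again no library overlapped, though 1 NC library stood well above the others. PLK1 fell by 0.50 (SE 0.19, adjusted p = 0.0335), and in U251 it was at 46.7, 69.2 and 55.5 against 38.5, 60.5 and 34.6 CPM, which overlapped, a log2 fold change of 0.38, adjusted p = 0.31. The T98G change minus the U251 change passed the test for AURKA (-1.08, adjusted p = 0.0147) and PLK1 (-0.87, adjusted p = 0.0126). The PLK1 call in T98G was lost without T98G NC replicate 1 (adjusted p = 0.242), PEPD-OE replicate 1 (0.125) or PEPD-OE replicate 2 (0.0918), and with DESeq2 (0.122). The AURKA difference between lines was lost without T98G PEPD-OE replicate 3 (0.0818) or U251 NC replicate 3 (0.0548), and that of PLK1 without T98G NC replicate 1 (0.0685), U251 PEPD-OE replicate 2 (0.0795) or U251 NC replicate 3 (0.0638). With DESeq2 the differences of AURKA (0.0825) and PLK1 (0.0765) were lost as well.

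The other entry genes did not pass the test in either line. CDK1, the kinase at the centre of the switch, was at 27.5 ± 7.68 and 26.7 ± 1.23 CPM (mean ± SD, n = 3) in T98G PEPD-OE and NC and at 25.4 ± 0.319 and 24.3 ± 3.41 in U251. CCNB1, which encodes its partner cyclin B1, had log2 fold changes of -0.28 (SE 0.26) in T98G and -0.45 (SE 0.25) in U251, and CCNB2, the second B-type cyclin, 0.50 (SE 0.37) and 0.00 (SE 0.32). CCNA2 (cyclin A2) was at -0.03 and -0.09, and the phosphatase gene CDC25B at 0.11 and -0.13. CDC25C, a further CDK1-activating phosphatase, was not tested; its libraries held 25 and 16 counts in T98G PEPD-OE and NC and 10 and 15 in U251. In sum the 8 entry genes stood at 328 ± 9.28 CPM in T98G PEPD-OE and 377 ± 19.4 in T98G NC, and at 256 ± 27.6 and 261 ± 11.7 in U251. For these 7 tested genes edgeR called 0 in U251, with 0 at an unadjusted p under 0.05. It called 8.55% of all genes there, and 1794 of 8773 had an unadjusted p under 0.05.

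Of 10 genes of chromosome structure, 4 were higher and 1 lower in T98G (50% called, against 32.3% of all genes, 17.7% higher and 14.7% lower). TOP2A (chr17:40388516-40417950, minus strand) encodes topoisomerase II alpha, which untangles sister DNA and builds the mitotic chromosome axis. It was at 435, 433 and 409 CPM in T98G PEPD-OE and 226, 266 and 253 in NC. The groups lay far apart, a rise of 0.77 (SE 0.12, adjusted p = 3.75e-08, 1.70-fold). In U251 the values were 235, 203 and 162 against 187, 219 and 165 and overlapped, a log2 fold change of 0.06 (SE 0.13), and the difference between the lines was 0.71, adjusted p = 0.000817. HMGB2 (chr4:173331695-173335125, minus strand), a DNA-bending chromatin protein gene, was at 198, 235 and 242 against 175, 165 and 147 CPM in T98G. It rose by 0.48 (adjusted p = 0.00285) without overlap, while its U251 libraries overlapped at 169, 236 and 222 against 229, 206 and 214 (-0.04), and the difference was 0.52, adjusted p = 0.0251. Without TMM factors the HMGB2 rise had an adjusted p of 0.123. The HMGB2 difference was lost without any of T98G PEPD-OE replicate 2 (0.0703), PEPD-OE replicate 3 (0.0732), T98G NC replicate 3 (0.104), U251 PEPD-OE replicate 1 (0.0861) or U251 NC replicate 1 (0.066). It was also lost without TMM factors (edgeR adjusted p = 0.392) and with no filter on low counts (0.0666).

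The condensin I subunits moved in different directions. Condensin is a ring of the ATPases SMC2 and SMC4 closed by NCAPH and carrying the HEAT-repeat subunits NCAPD2 and NCAPG. NCAPG (chr4:17810902-17844862, plus strand) was at 251.4, 192 and 234 CPM in T98G PEPD-OE and 97.1, 72.8 and 100.3 in NC, the largest rise of the 51 genes (1.34, SE 0.15, adjusted p = 2.27e-14, 2.52-fold). In U251 it was at 265, 254 and 271 and 255, 251.2 and 246, so that the T98G NC libraries alone stood low. NCAPD2 (chr12:6493356-6531955, plus strand) was at 302, 268 and 302 against 200.5, 198 and 229.6 CPM in T98G and rose by 0.47 (SE 0.13, adjusted p = 0.00161); without TMM factors the adjusted p was 0.11. SMC4 (chr3:160399274-160434962, plus strand) was at 188, 148 and 138 against 257, 227 and 252 CPM and fell (-0.63, SE 0.14, adjusted p = 9.01e-05). No library of the PEPD-OE and NC groups overlapped for any of these subunits in T98G. SMC4 was at 276, 249.5 and 179 against 190.2, 209 and 163 in U251, where the groups overlapped (0.31, adjusted p = 0.128), but it passed there without U251 PEPD-OE replicate 3 (0.0102). SMC2 was at 16.7 ± 8.10 and 24.4 ± 3.98 CPM in T98G PEPD-OE and NC (-0.56, adjusted p = 0.228) and NCAPH at 10.7 ± 7.06 and 19.1 ± 5.78 (-0.87, adjusted p = 0.0896), neither past the test, though NCAPH passed without T98G PEPD-OE replicate 3 (0.0273). The change differed between the lines for NCAPG (1.26, adjusted p = 1.79e-08) and SMC4 (-0.95, adjusted p = 2.46e-05) but not past the threshold for NCAPD2 (0.41, adjusted p = 0.0851).

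For NCAPG and SMC4 the gene on the other strand moved too. LCORL was at 396, 388 and 366 CPM in T98G PEPD-OE and 553, 486 and 582 in NC, so it fell (-0.49, adjusted p = 4.9e-05) where NCAPG rose. TRIM59 was at 2686, 2495 and 2405 and 3248, 3454 and 3733 CPM and fell (-0.46, adjusted p = 5.54e-08), as SMC4 did. In U251 LCORL (0.06) and TRIM59 (0.20) did not pass the test, but TRIM59 passed without U251 PEPD-OE replicate 2 (adjusted p = 0.0293). MRPL51, a mitochondrial ribosome gene across from NCAPD2, was at 104 ± 3.01 and 89.2 ± 3.25 CPM in T98G (0.22, adjusted p = 0.36), and EXOSC9, an exosome gene across from CCNA2, at 235 ± 13.1 and 195 ± 5.40 (0.27, adjusted p = 0.0947). PRC1-AS1 rose in T98G (0.26, adjusted p = 0.00724), from 2195 ± 35.4 to 2631 ± 159 CPM, which did not pass with T98G PEPD-OE replicate 1 left out (adjusted p = 0.0762) and without TMM factors (0.689). The part of these genes in the values under SMC4, NCAPG and PRC1 was not tested.

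**Figure D2:**
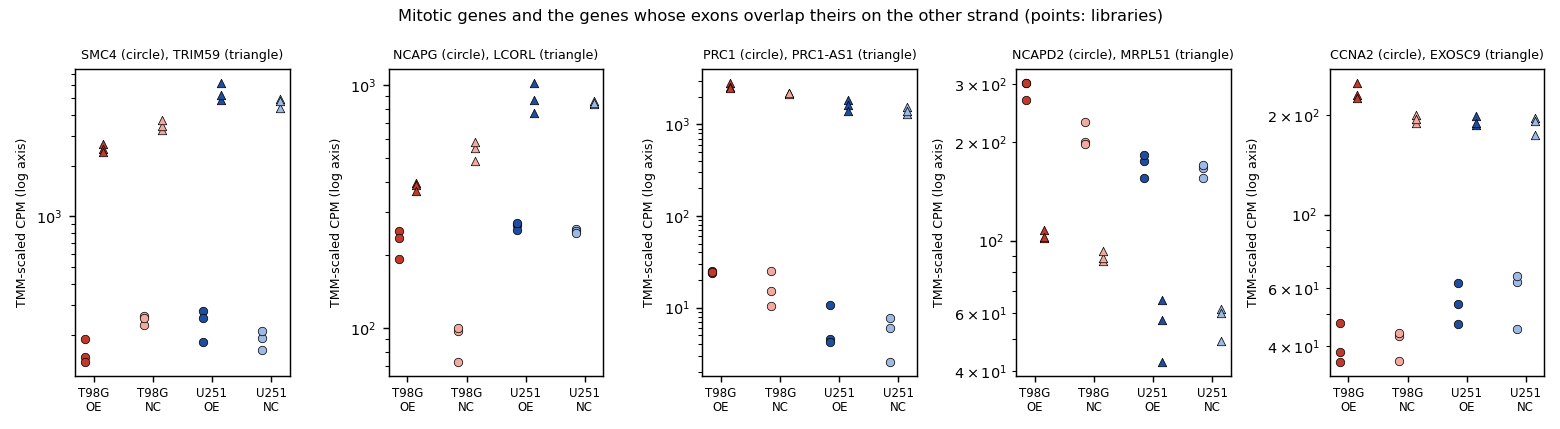
TMM-scaled CPM on a log y axis in each library of the 4 groups for 5 mitotic genes (circles) and the gene whose exons overlap theirs on the other strand (triangles). TRIM59 lies above SMC4 and PRC1-AS1 above PRC1 in every library, and in T98G the NCAPG circles are higher and the LCORL triangles lower with PEPD-OE.

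LMNB1 (chr5:126776623-126837020, plus strand) encodes lamin B1, a protein of the nuclear lamina that is taken apart in mitosis, and it was 1 of the genes that rose in U251. Its U251 levels were 75.3, 97.9 and 85.4 CPM in PEPD-OE and 61.4, 65.7 and 47.4 in NC, without overlap. The rise was 0.57 (SE 0.18, adjusted p = 0.0283). In T98G the levels of 84.3, 65.4 and 65.5 and 76.0, 92.3 and 102 overlapped, a log2 fold change of -0.35, adjusted p = 0.138, and the difference between the lines was -0.93, adjusted p = 0.00297. The U251 call was lost without U251 NC replicate 3 (adjusted p = 0.212), NC replicate 1 (0.0674), PEPD-OE replicate 2 (0.196) or PEPD-OE replicate 3 (0.0572), and with DESeq2 (0.0839), while the difference between the lines kept its call under every alternative run. MKI67 was at 374, 318 and 396 against 327, 311 and 331 CPM in T98G and 338, 352 and 312 against 267, 326 and 274 in U251. Its groups overlapped in both lines, with log2 fold changes of 0.17, adjusted p = 0.273 in T98G and 0.21, adjusted p = 0.299 in U251. CDCA2, which brings a phosphatase to chromatin, was at -0.18 (SE 0.47) and 0.37 (SE 0.43). Summed, the 10 chromosome genes stood at 1798 ± 105 CPM in T98G PEPD-OE and 1426 ± 43.7 in T98G NC, and at 1549 ± 78.1 and 1395 ± 87.1 in U251.

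**Figure D3:**
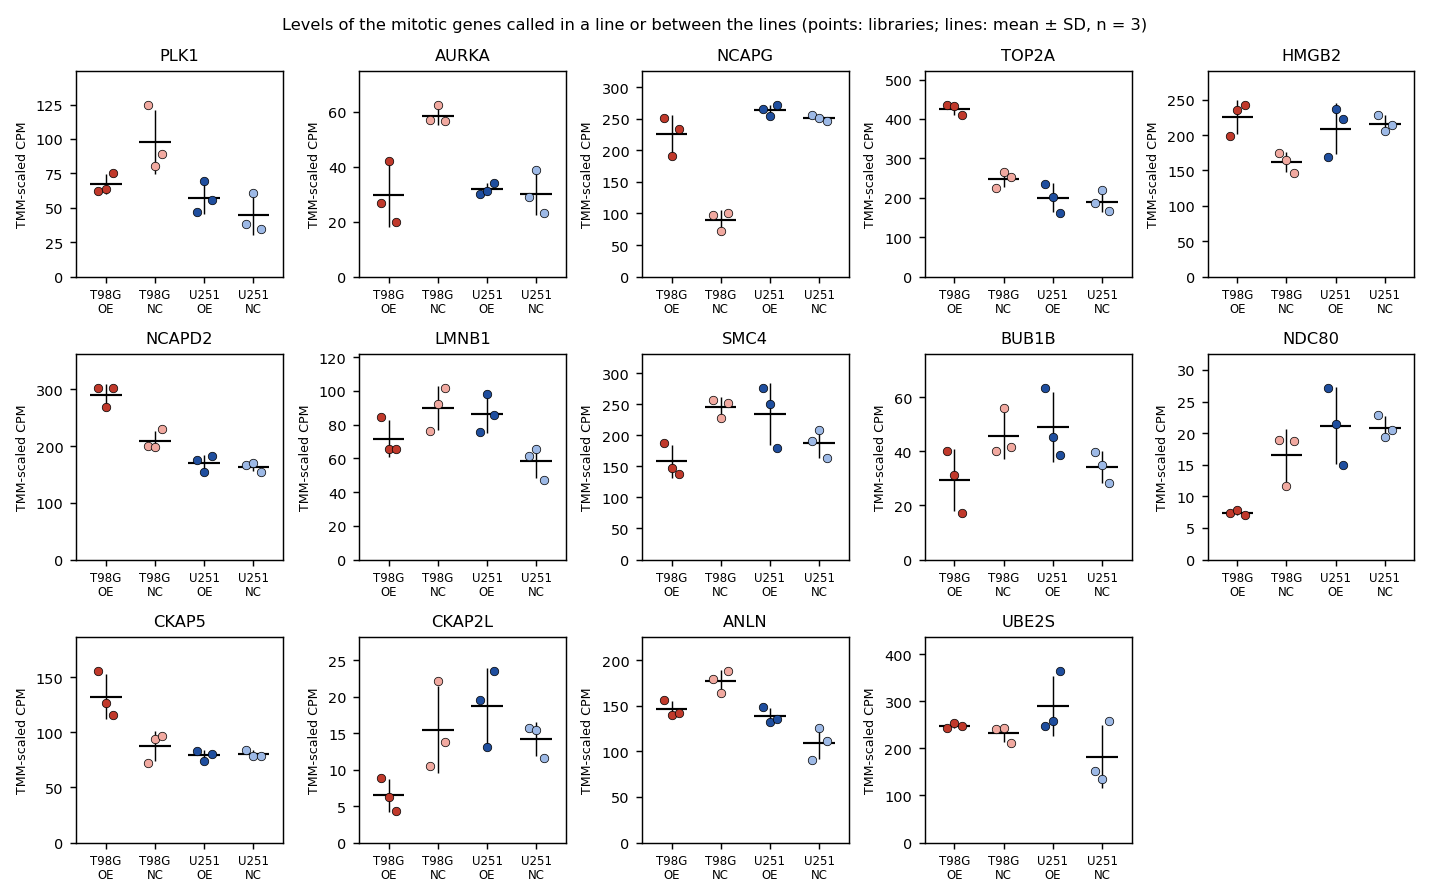
TMM-scaled CPM (y axis from 0) in each library for the 14 mitotic genes called in a line or for the difference between the lines, with the mean ± SD of 3 libraries. NCAPG is low in T98G NC alone, and AURKA is high in T98G NC alone.

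At the kinetochore and the spindle checkpoint, 2 of 12 tested genes fell in T98G (16.7%, against 32.3% of all genes called and 14.7% called lower) and edgeR called 0 in U251, where 2 were higher at an unadjusted p under 0.05. In U251 edgeR called 8.55% of all genes, and 1794 of 8773 had an unadjusted p under 0.05 in either direction. BUB1B (chr15:40161023-40221136, plus strand) encodes BubR1, a part of the complex that blocks the anaphase-promoting complex. It was at 39.9, 31.2 and 17.1 CPM in T98G PEPD-OE and 40.1, 55.9 and 41.4 in NC, where the highest PEPD-OE library and the lowest NC library nearly met. BUB1B fell by 0.66 (SE 0.26, adjusted p = 0.0408), was at 63.3, 45.4 and 38.4 against 39.7, 34.8 and 28.2 in U251 (0.48, adjusted p = 0.225), and differed between the lines (-1.14, adjusted p = 0.00805). NDC80 (chr18:2571511-2616635, plus strand), whose protein holds the microtubule end at the kinetochore, had 15 counts in all in T98G PEPD-OE and 33 in NC, or 7.40, 7.79 and 7.12 against 19.0, 11.7 and 18.8 CPM. It fell by 1.11 (SE 0.45, adjusted p = 0.0477), close to the threshold. The NDC80 call was lost in 16 of 22 alternatives, with adjusted p up to 0.177, among them the omission of every T98G library but NC replicate 2 and of U251 PEPD-OE replicate 2 or any U251 NC library. That of BUB1B was lost in 7, among them without T98G PEPD-OE replicate 3 (0.346), PEPD-OE replicate 2 (0.0619) or NC replicate 2 (0.247). The BUB1B difference between the lines was lost without T98G PEPD-OE replicate 3 (0.0722) or T98G NC replicate 2 (0.0514), and with DESeq2 (0.06015).

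The other checkpoint and kinetochore genes stayed within the threshold. BUB1, the kinase that recruits BubR1 to kinetochores, was at 16.6, 29.8 and 27.8 against 8.43, 16.7 and 15.4 CPM in U251, where 1 PEPD-OE library overlapped the NC libraries (0.91, adjusted p = 0.0742), and at 0.10 (SE 0.30) in T98G. The BUB1 difference in U251 passed the test without U251 PEPD-OE replicate 1 (adjusted p = 0.0354). TTK, the kinase that starts checkpoint signalling, was at -0.73 (SE 0.43) in T98G and -0.13 (SE 0.36) in U251, and MAD2L1, a further checkpoint gene, at 0.52 (SE 0.33) and 0.26 (SE 0.35). NUF2, the partner of NDC80, was at 0.04 (SE 0.36) in T98G and 0.50 (SE 0.28) in U251, where it passed without U251 NC replicate 1 (0.0306). CENPF, of the outer kinetochore, was at 77.5 ± 18.2 and 102 ± 15.4 CPM in T98G (-0.41, adjusted p = 0.0675), a value that passed the test without T98G PEPD-OE replicate 1 (0.0251) or U251 PEPD-OE replicate 1 (0.0495). With edgeR it also passed under upper-quartile scaling (0.0371), with each line fitted alone (0.0299) and without TMM factors (0.0033). CENPE, a kinetochore motor gene, was at 0.35 (SE 0.37) and -0.03 (SE 0.36). CENPA, the centromeric histone, had 22 and 22 counts in T98G PEPD-OE and NC and 16 and 14 in U251. The chromosomal passenger genes AURKB (0.51 and 0.09), BIRC5 or survivin (0.17 and 0.36) and CDCA8 or borealin (-0.38 and 0.49) did not pass in T98G or U251, and neither did KIF2C, a motor that takes microtubules apart (0.30 and -0.11).

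Among spindle genes, CKAP5 rose and CKAP2L fell in T98G (20% of 10 tested, against 32.3% of all genes), and edgeR called 0 of 10 in U251, with 1 at an unadjusted p under 0.05. The U251 values for all genes were 8.55% called and 1794 of 8773 at an unadjusted p under 0.05. CKAP5 (chr11:46743048-46846308, minus strand), a microtubule polymerase gene also called ch-TOG, was at 155, 126 and 115 against 71.7, 93.6 and 96.6 CPM in T98G. No library overlapped, and the rise was 0.57 (SE 0.16, adjusted p = 0.00347); the U251 values of 82.9, 74.0 and 80.1 and 84.3, 78.6 and 78.1 overlapped (-0.03). CKAP5 did not pass with T98G PEPD-OE replicate 1 left out (adjusted p = 0.0695) and without TMM factors (0.0884). CKAP2L (chr2:112736607-112764677, minus strand), a spindle protein gene, held 13 and 33 counts in T98G PEPD-OE and NC, or 8.87, 6.23 and 4.27 against 10.6, 22.1 and 13.8 CPM. It fell by 1.30 (SE 0.48, adjusted p = 0.0254) but did not pass without T98G NC replicate 2 (0.224), PEPD-OE replicate 2 (0.0615) or PEPD-OE replicate 3 (0.121). Nor did it pass with DESeq2 (0.0903) or, with edgeR, with no filter on low counts (0.0639). In U251 it was at 19.6, 13.1 and 23.5 against 15.7, 15.5 and 11.5 (0.40), which overlapped. The change differed between the lines for CKAP2L (-1.70, adjusted p = 0.0225), lost without T98G NC replicate 2 (0.138), T98G PEPD-OE replicate 3 (0.079), U251 PEPD-OE replicate 3 (0.0803) or U251 NC replicate 3 (0.0506). The CKAP2L difference was also lost with DESeq2 (0.0999) and, with edgeR, with no filter on low counts (0.0597). For CKAP5 the difference was 0.60, adjusted p = 0.0475, a call lost in 16 of 22 alternatives (adjusted p up to 0.363), all library omissions but those of T98G PEPD-OE replicate 3 and U251 PEPD-OE replicate 1 included.

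The remaining spindle genes gave no call in T98G or U251. TPX2, which activates Aurora A on the spindle, was at 187 ± 27.0 and 184 ± 14.7 CPM in T98G and 108 ± 16.6 and 95.3 ± 20.8 in U251, and TACC3, a partner of CKAP5, at 86.9 ± 15.8 and 83.7 ± 8.18 and at 175 ± 23.0 and 166 ± 18.1. KIF11, the motor that pushes spindle poles apart, was at -0.19 (SE 0.25) in T98G and 0.52 (SE 0.24) in U251 (adjusted p = 0.179); the U251 value passed without U251 PEPD-OE replicate 3 (0.0451). HMMR, a spindle-pole protein gene, was at -0.58 (SE 0.32) and -0.23 (SE 0.38), and passed in T98G without PEPD-OE replicate 3 (0.0323). CKAP2 was at -0.46 and -0.16 and passed in T98G without PEPD-OE replicate 1 (0.0466), and ASPM, a spindle-pole gene, was at 0.43 and 0.19 and passed in T98G without NC replicate 2 (0.0427). DLGAP5 (0.44 and -0.06) and GTSE1 (-0.08 and 0.26) did not pass. NUSAP1 held 1 count in T98G PEPD-OE, 1 in U251 PEPD-OE and 0 in both NC groups.

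Of the 8 central spindle and cytokinesis genes, edgeR called 0 in T98G and 0 in U251, with 1 at an unadjusted p under 0.05 in each line, and DESeq2 called 0 of them in either line. Of all 8773 genes, edgeR called 32.3% in T98G and 8.55% in U251, and 3587 and 1794 had an unadjusted p under 0.05. ANLN (chr7:36389806-36453791, plus strand), which encodes the anillin scaffold of the contractile ring, was at 157, 140.2 and 142 against 179, 164 and 188 CPM in T98G and at 149, 133 and 136 against 90.3, 126 and 111 in U251. The PEPD-OE libraries were all below NC in T98G and all above NC in U251, yet neither change passed in the main run (-0.27, adjusted p = 0.141 and 0.35, adjusted p = 0.141). The T98G value passed with each line fitted alone (edgeR adjusted p = 0.0492) and without TMM factors (0.00413). The difference between the lines did pass (-0.62, adjusted p = 0.0153), except without T98G NC replicate 3 (0.0523) or U251 NC replicate 1 (0.0804), and with DESeq2 (0.0684). KIF4A, a chromosome-borne motor gene, was at 29.6, 29.6 and 29.9 against 44.3, 42.9 and 41.4 CPM in T98G, also without overlap (-0.52, adjusted p = 0.115), and at 0.27 (SE 0.22) in U251. The centralspindlin genes KIF23 (0.23 and 0.20) and RACGAP1 (-0.35 and 0.33) and the RhoA activator gene ECT2 (-0.22 and 0.33) did not pass. Neither did the motors KIF20A (0.39 and -0.45) and KIF20B (0.05 and 0.02), nor PRC1, which bundles the central spindle (0.61 and 0.26).

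UBE2S (chr19:55399745-55407777, minus strand) extends ubiquitin chains for the anaphase-promoting complex and was the other gene that rose in U251. It was at 249, 259 and 364 CPM in U251 PEPD-OE and 153, 135 and 259 in U251 NC. Replicate 3 stood above the other libraries in each group, and the highest NC library overlapped the PEPD-OE libraries. The rise was 0.68 (SE 0.17, adjusted p = 0.00745), and it was lost without U251 PEPD-OE replicate 1 (0.0573), U251 NC replicate 1 (0.0544) or T98G PEPD-OE replicate 1 (0.0507), and with DESeq2 (0.0677). In T98G UBE2S was at 244, 254 and 248 against 241, 244 and 212 (0.10), and the difference between the lines was -0.58, adjusted p = 0.0686, which passed in 7 alternatives, among them without U251 NC replicate 3 (0.000112). UBE2C, which starts the chains, was at -0.00 (SE 0.25) in T98G and -0.05 (SE 0.26) in U251. CDC20, the activator of the complex that the checkpoint blocks, was at -0.17 (SE 0.18) and -0.10 (SE 0.20), and CDCA3 at -0.08 (SE 0.21) and 0.16 (SE 0.18). In T98G edgeR called 0 of these 4 genes, with 0 at an unadjusted p under 0.05, and DESeq2 called 0. Among all 8773 genes edgeR called 32.3% in T98G, and 3587 had an unadjusted p under 0.05.

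Set against each other, the responses of the lines differed for 11 of the 51 genes (21.6%, against 27.7% of all genes, 14.1% higher and 13.6% lower), so this count too is not a result about the mitotic genes. TOP2A, NCAPG, HMGB2 and CKAP5 had the higher change in T98G, and AURKA, PLK1, SMC4, LMNB1, BUB1B, CKAP2L and ANLN the higher change in U251. Calls for NCAPG, SMC4 and LMNB1 were kept under every alternative that tested them, and that for TOP2A was lost only with library totals alone (adjusted p = 0.0641). The run on genes free of overlap across the strand did not hold NCAPG and SMC4. DESeq2 called TOP2A, NCAPG, HMGB2, SMC4 and LMNB1, 5 of the 11. Scaling moved the split by direction: with library totals alone, which shifted the median gene by -0.22 in T98G, 2 mitotic genes were higher and 12 lower in T98G, 1 and 13 for the difference between the lines, and 4 and 0 in U251. Relative to that shift the median of the 51 genes stayed where it was (-0.22 against a median gene of -0.21). Beyond the main run, library totals alone also called lower in T98G NCAPH (edgeR adjusted p = 0.0274), LMNB1 (0.0109), CENPF (0.0033), HMMR (0.0387), KIF4A (0.0183) and ANLN (0.00413). No call changed its sign.

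Summed over all 54 genes, the level was 3953 ± 169 CPM in T98G PEPD-OE and 3640 ± 52.4 in T98G NC, and 3634 ± 38.4 in U251 PEPD-OE and 3221 ± 113 in U251 NC. The PEPD-OE libraries lay above the NC libraries in both lines. As a share of all counts, without TMM factors, T98G turned the other way, at 0.352 ± 0.0166% against 0.377 ± 0.00960%, while U251 kept its direction at 0.365 ± 0.00703% against 0.307 ± 0.0176%. Restricted to the 36 genes with no exon overlap across the strand, the sums were 2595 ± 103 and 2355 ± 110 CPM in T98G and 2337 ± 23.1 and 2066 ± 64.5 in U251. Kinetochore genes summed to 384 ± 8.85 and 406 ± 22.5 CPM in T98G PEPD-OE and NC and 440 ± 33.8 and 387 ± 55.5 in U251, spindle genes to 589 ± 38.7 and 552 ± 64.7 and to 536 ± 20.8 and 494 ± 29.1. Cytokinesis genes summed to 423 ± 18.5 and 449.6 ± 18.1 in T98G and 396 ± 25.4 and 338 ± 32.2 in U251. These sums are led by a few abundant genes and are given as descriptions.

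**Figure D4:**
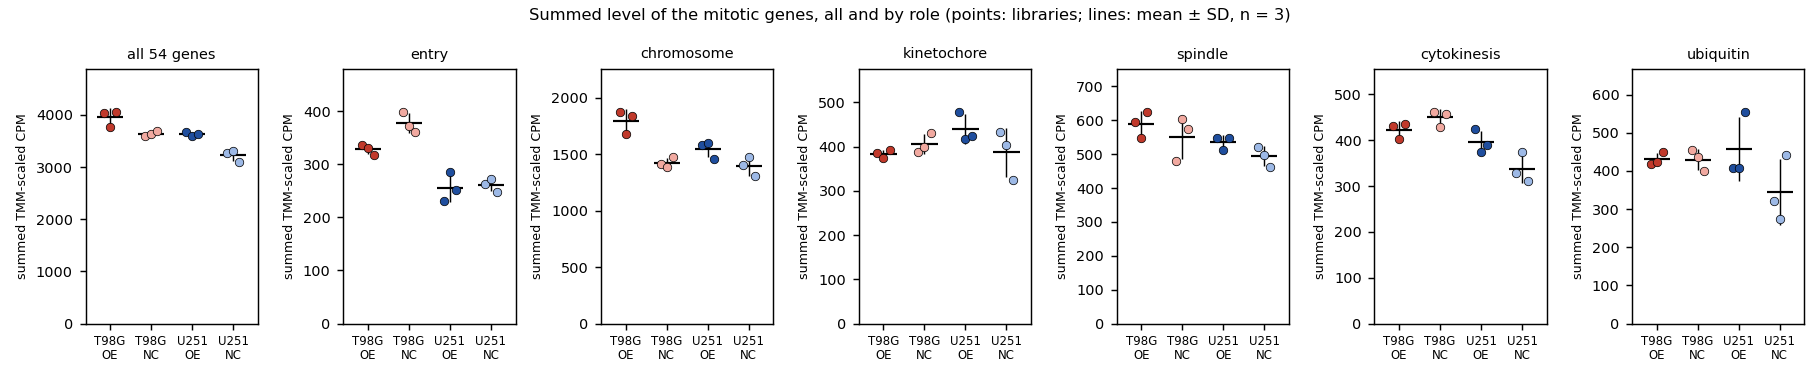
Summed TMM-scaled CPM of all 54 mitotic genes and of each role (y axes from 0) per library, with the mean ± SD of 3 libraries in each of the 4 groups. The chromosome genes stand highest in T98G PEPD-OE (1798 CPM on average, against 1426 in T98G NC).

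The lines differed in their NC libraries at 21 of the 51 genes (41.2%, against 48.7% of all genes, 24.4% higher and 24.3% lower in T98G), 17 higher in T98G and 4 lower. Libraries did not overlap for 26 genes (51% against 55.1% of all genes). Since each line stands for itself, this compares these cultures only. CDC25B, the phosphatase gene that acts early at centrosomes, was at 95.0, 93.6 and 77.8 CPM in T98G NC and 27.7, 42.5 and 38.4 in U251 NC, 2.43-fold higher in T98G (1.28, adjusted p = 5.34e-08). Likewise RACGAP1 was at 65.4, 35.1 and 37.6 against 18.1, 21.9 and 11.5 (1.34, adjusted p = 3.48e-05), PLK1 at 1.10, adjusted p = 1.03e-06 and AURKA at 0.96, adjusted p = 0.000338. The spindle genes TPX2 (0.95), HMMR (1.06) and GTSE1 (1.15), and LMNB1 (0.65), ANLN (0.70) and CDC20 (0.73) were higher in T98G as well. NCAPG was at 97.1, 72.8 and 100.3 in T98G NC and 255, 251.2 and 246 in U251 NC, the lowest value of the 51 (-1.49, adjusted p = 5.59e-18), and TACC3 was at 76.0, 92.3 and 82.8 against 177, 146 and 177 (-0.98, adjusted p = 3.26e-08). These 12 genes kept their calls under every alternative that tested them. The run on genes free of overlap across the strand did not hold PLK1, RACGAP1, HMMR, ANLN and NCAPG.

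The other 9 differences between the NC groups rested on single libraries or settings. TOP2A (0.39), SMC4 (0.39) and BIRC5 (0.83) were lost without U251 NC replicate 3 (adjusted p = 0.0846, 0.1 and 0.102), and PRC1 (1.51) without T98G NC replicate 1 (0.0589). NCAPD2 (0.36) was lost without T98G NC replicate 3 (0.137) or U251 NC replicate 3 (0.0708), and BUB1 (1.01) without T98G NC replicate 3 (0.0887) or U251 NC replicate 1 (0.0904). HMGB2 (-0.43) was lost without T98G NC replicate 3 (0.0611) or without TMM factors (0.0569). CENPF (-0.41) was lost without T98G NC replicate 1 (0.0871), T98G NC replicate 2 (0.121) or U251 NC replicate 2 (0.12), and SMC2 (0.80) in 15 of 21 alternatives, with adjusted p up to 0.279, among them the omission of T98G NC replicate 2 or 3, U251 NC replicate 2 or 3 or any PEPD-OE library but T98G replicate 2. Calls for SMC4 (adjusted p = 0.056), BUB1 (0.0564) and CENPF (0.0785) were also lost with DESeq2. With edgeR that of NCAPD2 was also lost with no filter on low counts (0.0605) and that of CENPF without TMM factors (0.131). For SMC4 and TRIM59 the lines differed in opposite directions, since TRIM59 was lower in T98G NC (-0.44, adjusted p = 8.11e-08), whereas LCORL was lower there (-0.65, adjusted p = 9.61e-09) as NCAPG was.

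**Figure D5:**
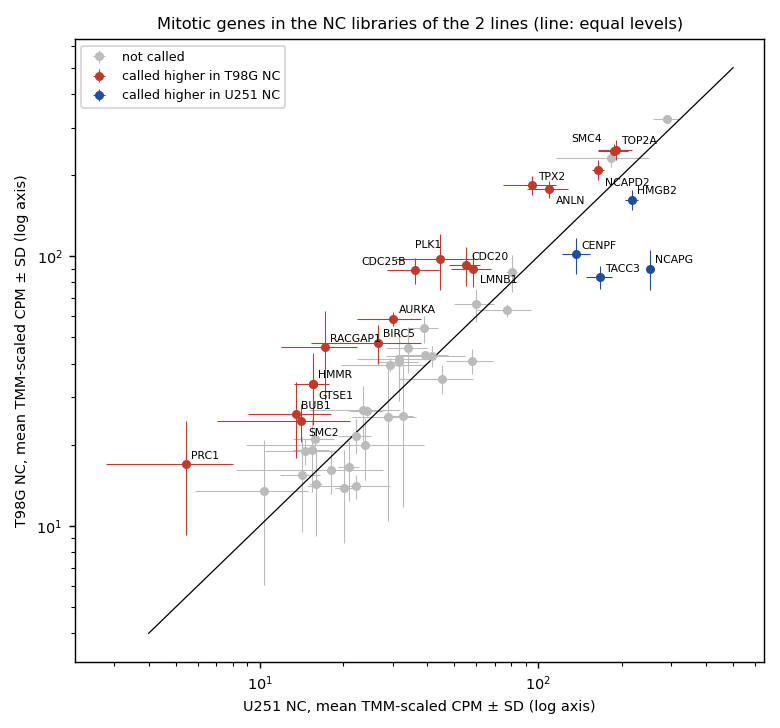
Mean TMM-scaled CPM of each tested mitotic gene in U251 NC (x axis, log) and T98G NC (y axis, log), with the SD of 3 libraries and the line of equal levels. Of the called genes, 17 lie above the line and NCAPG, HMGB2, CENPF and TACC3 lie below it.

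Divided by exon length, UBE2S and HMGB2 stood highest in the 4 groups. They were at 83.3 ± 6.33 and 58.5 ± 5.18 CPM per kb in T98G NC and 65.4 ± 24.0 and 77.9 ± 4.14 in U251 NC, where their ranges overlap. TPX2 (50.9 ± 4.08), CDC20 (45.5 ± 7.62) and TOP2A (38.6 ± 3.22) followed in T98G NC, neighbours that lie within or near each other's spread. TOP2A stood at 66.1 ± 2.26 CPM per kb in T98G PEPD-OE, ahead of TPX2 at 51.8 ± 7.50. At the low end were CENPE (1.51 ± 0.538), CDC25C (2.29 ± 0.369) and ASPM (2.32 ± 1.36) in T98G NC, and NUSAP1 at 0.

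Genes of the same pathway outside the 54 were read from lists of 135 names, of which 105 were tested. In T98G 7 rose and 14 fell (20% called, against 32.3% of all genes), in U251 2 and 2 (3.81% against 8.55%), and the difference between the lines passed for 4 higher and 17 lower (20% against 27.7%). Each share was below that of all genes. The inhibitory side of the CDK1 switch had 2 higher and 1 lower of 10 in T98G: CHEK1, a checkpoint kinase, was at 74.0, 51.4 and 45.6 against 27.4, 19.5 and 16.3 CPM and rose (1.49, adjusted p = 3.5e-06), and it did not pass in U251 (-0.13). Of 23 other kinetochore and checkpoint genes, 1 rose and 4 fell, HJURP, the chaperone of the centromeric histone, at 0.73, adjusted p = 0.000565, and CENPL at -1.30, adjusted p = 4.17e-05 and ZWINT at -0.93, adjusted p = 0.00258 among them. ESPL1, which encodes separase, was the only one of 15 cohesin and separase genes that fell (-2.07, adjusted p = 0.00205), on 8 counts against 35, and SMC1A, a cohesin ring subunit, the only one that rose in U251 (1.07, adjusted p = 3.39e-06). The condensin II gene NCAPH2 fell in T98G (-0.79, adjusted p = 2.04e-07), 1 of 3 condensin genes outside the 54. Further spindle and cytokinesis genes had 2 higher and 3 lower of 28 in T98G, BORA, an activator of Aurora A, rising by 1.04 (adjusted p = 6.43e-07). Of 13 anaphase-promoting complex genes, ANAPC11 and ANAPC15 fell in T98G. In the order given, these lists had 30%, 21.7%, 6.67%, 33.3%, 17.9% and 15.4% called in T98G. Of all genes 32.3% were called there (17.7% higher, 14.7% lower), so these counts are not results about the lists. The 4 calls in U251 were SMC1A and MYBL2, which rose, and NCAPD3 and RBBP4, which fell. SMC1A, CENPL, HJURP, BORA, FOXM1, RBBP4 and CLSPN also share exon bases with a gene on the other strand. ANAPC11, ANAPC15 and NCAPD3 are named here after their values were seen.

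The transcription factors that drive these genes had 2 higher and 2 lower of 13 in T98G (30.8%, near the 32.3% of all genes) and 1 and 1 in U251 (15.4% against 8.55%). FOXM1, which acts through the CHR in G2, was at 84.3, 53.0 and 91.2 against 69.6, 93.6 and 96.6 CPM in T98G and 70.8, 62.1 and 75.8 against 74.6, 67.0 and 83.3 in U251. Its libraries overlapped in both lines (-0.21, adjusted p = 0.415 and -0.11, adjusted p = 0.818). MYBL2, which encodes B-Myb, was at -0.42, adjusted p = 0.144 in T98G and rose in U251 (0.70, adjusted p = 0.0125), without overlap at 72.3, 80.0 and 67.3 against 48.2, 45.1 and 41.0 CPM. The U251 call was lost without U251 PEPD-OE replicate 2 (0.0907) or U251 NC replicate 3 (0.0785), and with DESeq2 (0.0516). E2F1 was at -0.24 (SE 0.26) and 0.63 (SE 0.26), the latter past the test without U251 PEPD-OE replicate 1 (0.0209), and RBBP4, a MuvB subunit gene, fell in both lines (-0.72, adjusted p = 3.75e-08 and -0.54, adjusted p = 2.67e-05). Beside these, 32 tested genes of DNA replication and the G1/S step had 1 higher and 11 lower in T98G (37.5% called, against 32.3% of all genes called and 14.7% called lower) and 8 higher in U251 (25%, against 8.55% of all genes called and 4.13% called higher). Their median log2 fold change was -0.48 in T98G, with 27 of 32 below 0, and 0.46 in U251, with 30 above 0. For the difference between the lines 0 were higher and 14 lower (43.8%, against 27.7% of all genes called and 13.6% called lower). CLSPN (claspin) fell in T98G (-1.35, adjusted p = 9.09e-08) and rose in U251 (0.97, adjusted p = 0.00025), and MCM3, a helicase subunit, fell in T98G (-0.83, adjusted p = 7.68e-06) and was at 0.40, adjusted p = 0.0551 in U251, which passed without U251 NC replicate 2 (0.0417).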

How the data were processed

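Polyadenylated RNA of 12 libraries was sequenced with a kit that marks the second cDNA strand with dUTP, per the labels' protocols. The deposited table holds raw counts per gene, without normalization by the authors. Per the submitters' processing notes, HISAT2, featureCounts, Subread, fastp and FastQC were used with GRCh38. Their versions, and how strand was set, are not stated in the sources read, so the counts may be of the opposite strand. Counts were tested in R 4.3.3 with edgeR 4.0.16 (filterByExpr minimum count 10, TMM, robust quasi-likelihood fit with 1 mean per group, 8 residual degrees of freedom). A gene was called when its two-sided p, after Benjamini-Hochberg adjustment over 8773 genes, was under 0.05. The SE is the log2 fold change divided by the root of the F statistic. An exact test of 3 against 3 libraries cannot go below p = 0.1, so single values were tested only in this fit. Identifiers were placed with GENCODE release 29, which held 92.1% of them. No libraries of a group agreed within sampling noise. The test was tried on simulated data first. Intervals and floors cover counting error only.

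The mitotic genes, the lists of pathway and marker genes, the contrasts and 22 alternatives were chosen with earlier results of these data known. The 22 were RLE and upper-quartile scaling, removal of mitochondrial and very abundant genes before scaling, no filter, a 1 CPM filter, DESeq2, each line alone, a replicate block, robust estimation off, only genes without overlap across the strand, and each of the 12 libraries left out. Fits with library totals alone were added after the values here had been seen. Any of the 54 genes could be named, with PEPD, FOXM1, MYBL2, the E2F genes, genes overlapping the 54 across the strand, and up to 3 called genes per list and contrast.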

Additional observations from a re-analysis of the deposited data

Results flagged for a closer look

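The values below are the T98G change minus the U251 change on the log2 scale, and each passed edgeR's quasi-likelihood test of that difference after Benjamini-Hochberg adjustment over all genes tested. Among the 54 mitotic genes the difference was 1.26 for NCAPG, 0.71 for TOP2A, 0.60 for CKAP5 and 0.52 for HMGB2, each higher in T98G PEPD-OE cells with a U251 value near 0. It was -1.08 for AURKA, -0.87 for PLK1, -0.95 for SMC4, -0.93 for LMNB1, -1.14 for BUB1B, -1.70 for CKAP2L and -0.62 for ANLN, where the T98G value was below 0 and the U251 value above it. In the main run LMNB1 had passed in U251 alone and ANLN in neither line.

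Outside the 54 genes, the difference was 1.62 for the checkpoint kinase gene CHEK1, -1.79 for the kinetochore gene CENPL, -1.22 for ZWINT, which links the inner and outer kinetochore, and -2.29 for the separase gene ESPL1. ESPL1 rested on 8, 35, 23 and 19 counts in the 4 groups, and its difference was lost without U251 PEPD-OE replicate 3 (adjusted p = 0.778), T98G PEPD-OE replicate 3 (0.0786), T98G NC replicate 2 (0.0529) or U251 NC replicate 1 (0.0567). For the condensin II gene NCAPH2 the difference was -0.47, for the cohesin gene SMC1A -1.40, for the transcription factor genes MYBL2 and E2F7 -1.13 and -1.77, and for the replication genes MCM3 and CLSPN -1.23 and -2.31. That of E2F7 was lost without T98G NC replicate 2 (0.0986) or U251 PEPD-OE replicate 2 (0.116), and that of NCAPH2 in 15 of 22 alternatives, 9 of them omissions of a library. With DESeq2 the differences of ESPL1 (adjusted p = 0.104) and E2F7 (0.0604) were lost too. TRIM59 and LCORL, which overlap SMC4 and NCAPG across the strand, had differences of -0.66 and -0.56. Thus TRIM59 moved with SMC4, and LCORL against NCAPG.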

How the results depend on the processing

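Direction was kept for every call in those of the 23 alternatives that tested the gene. Of the 11 mitotic genes called in T98G, AURKA, TOP2A, NCAPG and SMC4 kept their calls in all that tested them. Of the 11 differences between the lines, 3 did, of the 21 between the NC groups 12, and of the 2 in U251 0. NCAPG and SMC4 overlap a gene across the strand, so the run on genes free of overlap left them out and could not test their calls. The T98G count of 11 (21.6% of those tested, against 32.3% of all genes) was 7 without a filter on low counts (13% against 10.2%, so no longer below all genes), 7 with DESeq2 (13.7% against 23.9%) and 4 among genes free of overlap across the strand (11.8% against 27.3%), where fewer genes were tested (34 mitotic). Mitotic shares were also above those of all genes without that filter for the difference (16.7% against 8.15%) and the NC groups (35.2% against 17.8%), and with a filter of 1 CPM in 3 libraries in T98G (15.1% against 14.8%), for the difference (20.8% against 11.9%) and the NC groups (39.6% against 25.7%). In these runs the share of all genes is taken over many more, mostly low-count genes. Without the filter 25902 genes were tested and 2641 called in T98G, and with the 1 CPM filter 19506 and 2882. The main run had 8773 and 2837. The U251 count of 2 was 1 without a filter (1.85% against 1.93%), 1 with a filter of 1 CPM in 3 libraries (1.89% against 2.92%), 0 with DESeq2 and 4 with library totals alone (7.84% against 8.74%). The count of differences, 11, was 5 with DESeq2 and 6 without overlapping genes, and the NC count, 21, was 12 without them. Leaving out each library in turn gave 7 to 12 calls in T98G (7 without T98G PEPD-OE replicate 2), 1 to 3 in U251, 8 to 12 for the difference and 17 to 21 between the NC groups; in U251 the count was 1 without T98G PEPD-OE replicate 1, U251 PEPD-OE replicate 2, U251 NC replicate 1 or U251 NC replicate 3. Apart from the smaller gene set, the cause was not tested. With library totals alone, 14 genes were called in T98G, 14 for the difference and 22 between the NC groups. Fits of each line alone gave no value between lines.

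With the replicate number as a block, the counts were 10 in T98G, 2 in U251 and 11 for the difference, 10 of these shared; the block allows no NC contrast. Same-numbered libraries did not deviate together: correlations of their deviations were 0.0125, 0.0582 and 0.0037 in T98G and -0.0417, 0.0178 and 0.0054 in U251, and 3 of 6 libraries in T98G and 1 of 6 in U251 correlated best with their own number. At these depths 19 of the 51 genes held fewer than 20 counts per library, so moderate changes of the low genes (CENPE, CDCA2, NCAPH and the like) may not be detectable.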
